A study of Mus musculus with 9 samples.

Results

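This account follows 8 genes of mismatch and base excision repair, Msh3, Msh6, Pms1, Pms2, Exo1, Ung, Apex1 and Lig1, in mouse thymocytes before and after transformation. The members were all probe sets whose only gene symbol was one of these 8, which gave 17 of 45037 probe sets, and each gene was read from its brightest probe set among 11644 genes tested. The series has 9 arrays, each from a different C57Bl/6 mouse, and every mouse carried R26NC/NC, the R26-βcat allele. In the control group (n = 2) the mice had no CD4Cre, and CD4+CD8+ double-positive (DP) thymocytes were sorted at 6 weeks of age. The pre-transformed group (n = 3) held sorted DP thymocytes of CD4Cre+ mice of the same age, whose thymus was of normal size and polyclonal. Tumours (n = 4) were whole thymic tumours of CD4Cre+ mice aged 28, 26, 23 and 21 weeks, numbered 1 to 4 in that order.

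Cre was driven by Cd4, so that β-catenin was switched on from the DP stage onward, and Cre and active β-catenin cannot be told apart in this design. Sorted cells were over 98% DP and 0.1 µg of their RNA went through an amplification kit, while tumours held at least 95% DP cells and gave 2.5 µg for the standard labelling. Labelling, sorting and age therefore cannot be told apart from transformation in any comparison with tumours. Signals are MAS5 values on a linear scale, scaled to the same trimmed mean on every array, and median signals were 9.9 to 15.2. The DP markers Cd4 and Cd8b1 had signal in all groups. Means in control, pre-transformed and tumour arrays were 722, 996 and 1234 for Cd4 and 5525, 6171 and 3705 for Cd8b1. Of 9 DP markers tested, 8 were called lower in tumours than in pre-transformed cells, all but Cd4, where 31.0% of all genes were lower. In that comparison Rag2 went from 999 to 124 and Cd1d1 from 855 to 132. The pre-TCR gene Ptcra went from 230.3 to 4.31, which is under the median signal of every array. Summed signals of 8 myeloid markers were 126 to 248 in sorted cells and 157 to 3482 in tumours, where tumour 2 alone lay within the sorted range. Those of B cell markers were 1773 to 3045 in sorted cells and 246 to 5515 in tumours. The log2 ratio of 3′ to 5′ β-actin signal, a measure of RNA and labelling quality, was 0.81 in tumours (SD 0.28, n = 4) and 0.26 in sorted cells (SD 0.05, n = 5; exact permutation test, two-sided, p = 0.00794, the smallest possible).

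Mismatch repair removes bases that DNA polymerase paired wrongly. A MutS complex, which holds Msh6 for single mismatches or Msh3 for larger loops, finds the error, a MutL complex with Pms2 or Pms1 is then loaded, and the exonuclease Exo1 degrades the faulty strand. In base excision repair a glycosylase such as Ung, which takes out uracil, leaves a site without a base, the endonuclease Apex1 cuts the strand there, and a polymerase and a ligase such as Lig1 close the gap. Lig1 also joins Okazaki fragments at the replication fork, and a loss of mismatch repair is known to predispose mice to lymphoma of the thymus.

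In tumours, the excision and base excision genes Exo1, Ung, Apex1 and Lig1 rose against both sets of sorted cells, by 1.76 to 3.15 on the log2 scale against pre-transformed cells, a comparison in which 23.9% of all genes rose. Msh3 and Pms1 also rose against pre-transformed cells, by 0.64 and 0.68, with calls that several alternatives took away and no call against controls. Msh6 fell by 0.61 on the log2 scale against controls, and Pms2 passed the test in neither comparison. Against controls 20.5% of all genes rose and 25.2% fell. The calls of Lig1 and Msh6 against controls were each lost under 2 of 24 alternatives. Before transformation no member passed the test, beside 1.63% of all genes. Exo1, Ung, Apex1, Lig1 and Msh6 were lower on every pre-transformed array than on both control arrays, as were 15.6% of all genes.

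**Figure D1:**
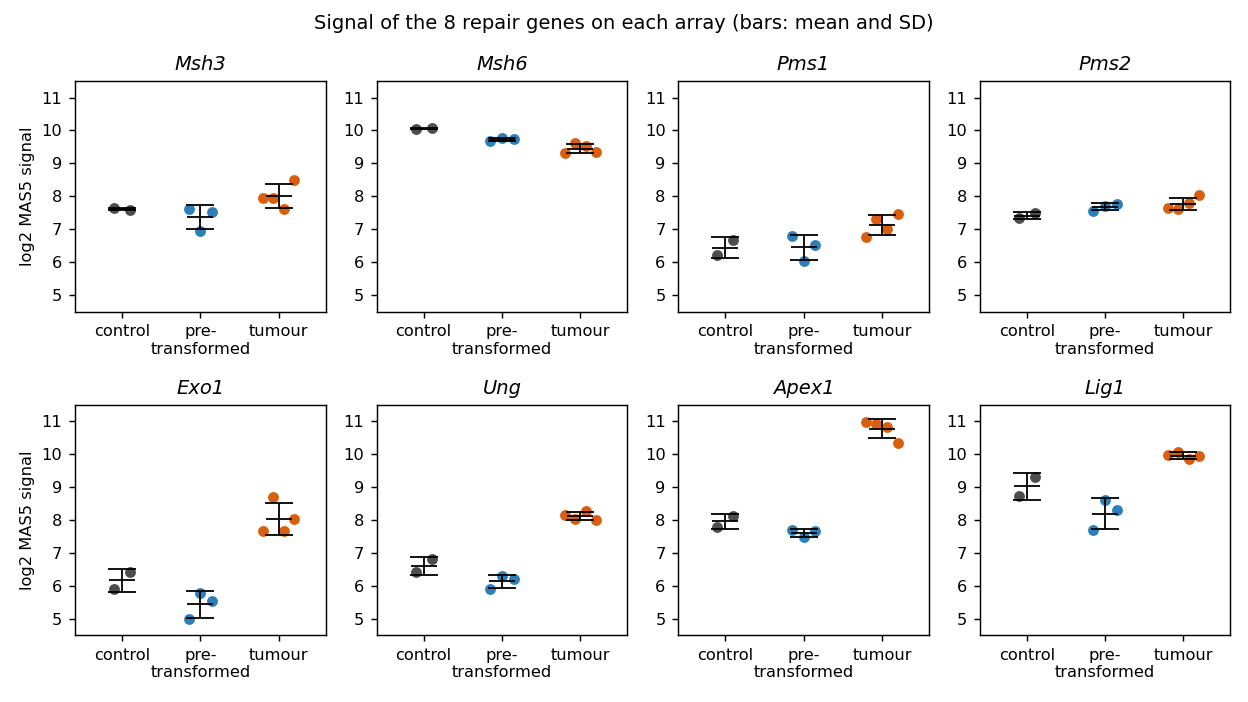
Log2 MAS5 signal of the brightest probe set of each repair gene (y axis) on each of the 9 arrays, by group, with bars for the mean and SD. Exo1, Ung, Apex1 and Lig1 lie higher on all 4 tumour arrays than on any sorted array, Msh6 lies highest on the 2 control arrays, and Pms2 on tumour and pre-transformed arrays overlaps.

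Msh6 encodes the MutS subunit that pairs with the common partner to find base mismatches, and lies on chromosome 17 (87975050 to 87990892, GRCm38.p6). Its single probe set gave signals of 1062.3 and 1070.8 on control arrays, 816.0, 869.8 and 847.1 on pre-transformed arrays and 639.4, 785.1, 735.4 and 648.6 on tumour arrays. The 3 groups did not overlap, with controls highest and tumours lowest. Tumours were lower than controls by a log2 change of -0.61 (SE 0.14, limma adjusted p = 0.00547), which is a 1.52-fold difference. Against pre-transformed cells the change was -0.27 (SE 0.12, adjusted p = 0.0804), which missed the threshold. It passed with quantile normalization (-0.37, adjusted p = 0.0159), with median centring of all probe sets (-0.53, adjusted p = 0.0422) and with a common floor (-0.27, adjusted p = 0.0273), and turned to 0.02 when arrays were centred on the genes tested. Centring on the genes tested also took the call against controls away (-0.33, adjusted p = 0.0954), as did leaving out control 1 (-0.61, adjusted p = 0.0527). The direction of Msh6 between tumours and pre-transformed cells thus depended on the scaling, and without tumour 2 the change passed the threshold (-0.33, adjusted p = 0.0445).

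Msh3 encodes the partner that recognises insertion and deletion loops, and lies on chromosome 13 (92211878 to 92355004). Signals of its brightest probe set were 200.3 and 192.5 in controls, 195.8, 124.1 and 185.5 in pre-transformed cells and 248.4, 248.8, 196.0 and 359.5 in tumours. Every tumour array was above every pre-transformed array, although tumour 3 barely exceeded the highest of them and was below control 1. The log2 change of tumours was 0.64 against pre-transformed cells (SE 0.23, adjusted p = 0.0415) and 0.39 against controls (SE 0.27, adjusted p = 0.254). The first of these calls was lost under 13 of 24 alternatives, and without pre-transformed 2, the lowest array, the change was 0.43 (adjusted p = 0.174). It was also lost without either control, without pre-transformed 3 or without tumour 1, 2 or 4, at adjusted p of 0.052 to 0.0862. With the mean of its probe sets, Msh3 changed by 1.27 against pre-transformed cells (adjusted p = 0.00563) and by 1.03 against controls (adjusted p = 0.0335). That mean also takes in 1446511_at, at 35.3 to 73.4 in sorted cells and 84.5, 11.6, 88.5 and 149 in tumours. This probe set changed by 0.27 against pre-transformed cells and 0.62 against controls (limma over every probe set, adjusted p = 0.771 and 0.559). The last probe set in the mean, 1422261_a_at, gave 3.4 to 8.6 in sorted cells and 26.9 to 45.6 in tumours. Its rise was the largest in the mean, but all 3 of its group means counted as dim. It lay under the median signal of every sorted array, so that only tumour arrays kept it in the mean. Dim here means a group mean under the 65th percentile of its arrays (28.5 to 44.6), and no fold is given between dim groups.

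Pms1, on chromosome 1 (53189187 to 53297031), encodes a MutL subunit whose part in repair is minor. Its probe set read 74.1 and 101.9 in controls, 110.3, 66.4 and 91.2 in pre-transformed cells and 107.8, 160.1, 128.4 and 175.1 in tumours. The controls and pre-transformed cells were spread over the same range, and tumour 1 was below pre-transformed 1. The rise of 0.68 (SE 0.25, adjusted p = 0.0407) over pre-transformed cells passed the threshold, and that of 0.69 over controls did not (SE 0.28, adjusted p = 0.0699). This call too was lost under 13 of 24 alternatives, with 0.48 (adjusted p = 0.167) without pre-transformed 2. It was lost as well without either control, pre-transformed 3, tumour 2 or tumour 4, at adjusted p of 0.052 to 0.0887.

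Pms2, the MutL subunit that nicks the strand to be repaired, lies on chromosome 5 (143909901 to 143972745). The brightest probe set, 1423539_at, gave 162.2 and 180.2 in controls, 189.3, 209.7 and 218.2 in pre-transformed cells and 198.9, 197.7, 221.9 and 261.5 in tumours. Controls were lowest, while tumours and pre-transformed cells overlapped. The log2 change of tumours was 0.09 against pre-transformed cells (SE 0.16, adjusted p = 0.656) and 0.35 against controls (SE 0.18, adjusted p = 0.134), and both turned negative with median centring of all probe sets (-0.17 and -0.03). The change against controls passed the threshold with quantile normalization (0.53, adjusted p = 0.0331) and with centring on the genes tested (0.64, adjusted p = 0.0142). A second Pms2 probe set fell in tumours. For 1432421_at the signals were 77.0 and 54.9 in controls, 83.3, 78.1 and 91.5 in pre-transformed cells and 20.5, 17.3, 13.6 and 20.7 in tumours, so that no tumour array reached any sorted array. It was at least 2.34-fold lower than in pre-transformed cells and at least 1.81-fold lower than in controls, with tumours set to the 65th percentile of their arrays as they were dim (limma over every probe set, adjusted p = 8.95e-05 and 8.67e-04). The last, 1436273_at, was dim in all groups, at 23.4 to 40.8. Probe sets of 1 gene can read different transcripts, which was not tested here, and the mean of the Pms2 probe sets was lower in tumours than in pre-transformed cells (-0.90, adjusted p = 0.00216) and than in controls (-0.56, adjusted p = 0.0451).

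Exo1, the exonuclease that removes the strand with the error, lies on chromosome 1 (175880768 to 175911396). Its brightest probe set read 60.3 and 85.6 in controls, 31.7, 54.9 and 46.9 in pre-transformed cells and 204.2, 418.1, 203.6 and 261.9 in tumours. The groups did not overlap: pre-transformed cells were lowest and tumours highest, with tumour 2 well above the other tumours. Tumours were at least 5.34-fold higher than pre-transformed cells, whose mean of 43.4 was dim, and 3.62-fold higher than controls. The log2 changes were 2.58 (SE 0.30, adjusted p = 9.81e-05) and 1.85 (SE 0.34, adjusted p = 0.00206). The second probe set, 1418027_at, rose as well, from 5.6 to 16.2 on sorted arrays to 80.2, 179.0, 43.4 and 62.7 in tumours, at least 1.81-fold over pre-transformed cells (adjusted p = 6.42e-04). Signals of 1430225_at were dim in all groups, at 0.1 to 3.4 on sorted arrays and 5.6 to 21.1 in tumours.

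Ung, the uracil glycosylase, lies on chromosome 5 (114130366 to 114139321). Its only probe set gave 86.0 and 112.1 in controls, 60.6, 79.3 and 73.4 in pre-transformed cells and 286.3, 263.5, 308.9 and 257.1 in tumours. The 4 tumours lay close together (SD 0.12 on the log2 scale) and far above every sorted array. The signal rose 3.94-fold over pre-transformed cells, by 1.98 on the log2 scale (SE 0.18, adjusted p = 2.70e-05), and 2.83-fold over controls (adjusted p = 4.14e-04).

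Apex1 encodes the major endonuclease for sites without a base, which also keeps transcription factors in their reduced form, and lies on chromosome 14 (50924949 to 50927188). Its log2 change was the highest among the members' brightest probe sets, although that of Exo1 is measured against a dim group. With the mean of probe sets Exo1 changed by 3.57 and Apex1 by 3.16. The Exo1 mean takes in 1430225_at, which changed by 5.02 but was dim in all groups and passed the filter only through tumour arrays. The other Exo1 probe sets changed by 2.58 and 3.12, so this order of the means is not well measured. The brightest probe set, 1437715_x_at, read 222.8 and 278.5 in controls, 209.9, 178.4 and 202.6 in pre-transformed cells and 2030.1, 1943.7, 1812.8 and 1297.0 in tumours. The lowest tumour, tumour 4, was still far above the highest sorted array. Tumours exceeded pre-transformed cells 8.88-fold (3.15 on the log2 scale, SE 0.18, adjusted p = 5.34e-06) and 7.01-fold higher than controls (2.81, SE 0.20, adjusted p = 2.89e-05). The suffix _x_at marks probes that may bind other transcripts, but 1416135_at, which has no such suffix, went from 114.8, 133.5 and 125.1 in pre-transformed cells to 1684.6, 1854.6, 1307.0 and 905.6 in tumours, an 11.2-fold rise. With 1456079_x_at the rise was 7.22-fold, so that all 3 probe sets rose and tumour 4 was lowest on each.

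Lig1, the ligase of replication and of long-patch repair, lies on chromosome 7 (13277175 to 13311426). Its signals were 425.4 and 638.0 in controls, 207.1, 388.0 and 313.9 in pre-transformed cells and 1005.7, 1078.2, 925.0 and 979.6 in tumours. The sorted arrays varied more than for the other 7 genes, with an SD of 0.41 in controls and 0.46 in pre-transformed cells on the log2 scale, against 0.09 in tumours, and the 3 groups did not overlap. The rise was 3.39-fold over pre-transformed cells (1.76 on the log2 scale, SE 0.22, adjusted p = 1.34e-04) and 1.91-fold over controls (0.93, SE 0.25, adjusted p = 0.0125). The call against controls was lost without control 1 (0.64, adjusted p = 0.158) and with median centring of all probe sets (0.55, adjusted p = 0.177).

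**Figure D2:**
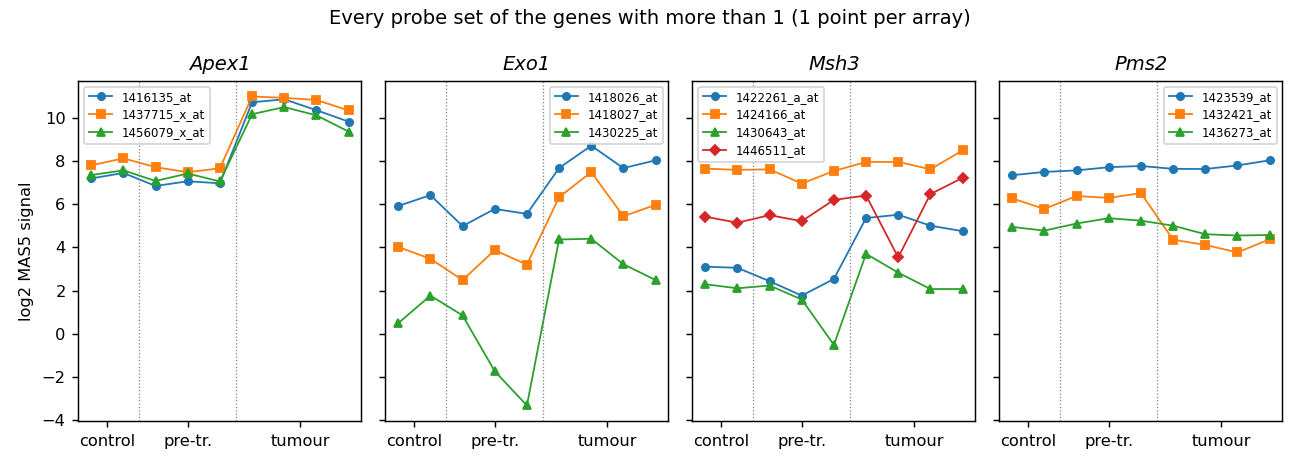
Log2 MAS5 signal (y axis) of every probe set of the 4 genes with more than 1, with 1 point per array in the order control, pre-transformed and tumour, and lines that only join points of a probe set. The 3 Apex1 probe sets all rise in tumours, while for Pms2 1432421_at lies at 13.6 to 20.7 in tumours on the linear scale and 1423539_at at 197.7 to 261.5.

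The promoters of Apex1 and Ung, which rose, and of Msh6, which fell against controls, are shown side by side. Promoter windows of 300 bases (250 before and 50 after a transcript start) were taken from RefSeq on GRCm38.p6 for 7 of the 8 genes, and the 250 bases before the start are printed 5′ to 3′. Capitals mark words that were searched on both strands.
Apex1, chr14:50924699-50924948, plus strand: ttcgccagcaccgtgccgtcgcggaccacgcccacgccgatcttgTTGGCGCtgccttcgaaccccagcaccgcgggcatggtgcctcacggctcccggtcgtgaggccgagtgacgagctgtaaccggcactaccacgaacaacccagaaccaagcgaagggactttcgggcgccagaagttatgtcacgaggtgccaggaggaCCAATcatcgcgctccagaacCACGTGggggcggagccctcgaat
Ung, chr5:114130185-114130434, plus strand: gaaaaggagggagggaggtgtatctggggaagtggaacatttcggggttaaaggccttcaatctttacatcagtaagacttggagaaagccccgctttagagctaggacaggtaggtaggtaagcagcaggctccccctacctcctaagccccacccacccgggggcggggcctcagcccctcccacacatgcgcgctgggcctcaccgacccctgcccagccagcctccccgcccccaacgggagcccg
Msh6, chr17:87974800-87975049, plus strand: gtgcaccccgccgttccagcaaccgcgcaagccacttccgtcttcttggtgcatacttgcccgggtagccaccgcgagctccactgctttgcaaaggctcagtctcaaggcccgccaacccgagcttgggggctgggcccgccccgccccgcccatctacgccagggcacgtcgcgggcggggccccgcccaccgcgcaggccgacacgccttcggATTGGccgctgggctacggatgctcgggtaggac
The words were the E2F-type TTCCCGC and TTGGCGC, the E-box CACGTG, which Myc can bind, the TCF/LEF word CTTTGAT and the CCAAT box, with no overlap between words in the printed windows (in the Pms1 window 1 CCAAT box overlapped TTGGCGC). In the Apex1 window CACGTG stood 3 times, with its first base at -24, 0 and 21 from the start site, which is counted as 0, and at least 3 copies were found in 29 of 32817 promoters of this length (0.0884%). At least 1 copy was found in 7.15%, and 1 of 3 Lig1 windows held 1 copy, at 36. The cutoff of 3 is the count in Apex1 itself, so that share is a description and not a test. Apex1 also held TTGGCGC at -205, as did 2.45% of all windows, and CCAAT boxes (37.4% of windows). None of the words was found in the Ung window. Msh6 held TTCCCGC at 16, behind the start site and so not printed, and CCAAT on the other strand at -34. TTCCCGC or TTGGCGC was found for Msh3, Msh6, Pms1, Pms2, Apex1 and for 1 of 3 Lig1 starts, against 6.8% of all windows, and thus in genes that rose and in genes that did not. CTTTGAT was found in no member's window, against 3.73% of all. A word is a description of these letters and says nothing of binding.

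Pre-transformed cells were compared with controls to see how these genes stood before tumours formed. None of the 8 members was called by limma at an adjusted p under 0.05, where 1.63% of all genes tested were called (1.11% higher and 0.524% lower). Lig1 had the largest difference, a log2 change of -0.83 (SE 0.26, adjusted p = 0.158), followed by Exo1 with -0.73 (SE 0.28, adjusted p = 0.223) and Ung with -0.47 (SE 0.19, adjusted p = 0.253). Apex1 and Msh6 both changed by -0.34 (adjusted p = 0.262 and 0.117). All 5 had an unadjusted p under 0.05 and lay lower on each pre-transformed array than on both controls. Of all genes, 7.87% were lower at that unadjusted p, 15.6% were lower without overlap of the arrays and 20.6% were higher without overlap. Msh3 differed by -0.25 (adjusted p = 0.56) and Pms1 by 0.01 (adjusted p = 0.991), a value that turned negative with quantile scaling and with both centrings. Pms2 was higher on each pre-transformed array than on either control, with a change of 0.26 (adjusted p = 0.329). The median over the 8 genes was -0.34, beside 0.02 over all genes.

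Tumours were compared with pre-transformed cells to show what went with transformation. Of the 8 genes, 6 were higher and none was lower at an adjusted p under 0.05, where 23.9% of all genes were higher and 31.0% lower. The risers were Apex1, Exo1, Ung, Lig1, Pms1 and Msh3. Without overlap of the arrays 5 were higher (24.8% of all genes) and Msh6 was lower (32.1% of all genes). Exo1, Ung, Apex1 and Lig1 kept their calls under every alternative that gave them a value, whereas those of Pms1 and Msh3 did not. By the fitted log2 change Apex1 rose more than 97.0% of all genes, Ung more than 92.0% and Lig1 more than 90.2%. The change of Pms1 exceeded that of 73.4% of genes, of Msh3 72.3%, of Pms2 56.6% and of Msh6 44.9%. The median over the 8 genes was 1.22 and that over all genes -0.12. Another scaling moved the latter to -0.09 (quantile), -0.38 (median centring of all probe sets) or 0.17 (centring on the genes tested), and with the last of these 3624 genes were higher and 2699 lower, in place of 2785 and 3607.

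Against controls, which share the tumour arrays with the comparison just given, 4 of the 8 genes were higher (20.5% of all genes) and Msh6 was lower (25.2% of all genes). Msh3, Pms1 and Pms2 did not pass the threshold. With quantile normalization 6 members were higher and 1 lower, as Pms1 (0.87, adjusted p = 0.0299) and Pms2 passed, with centring on the genes tested 6 were higher and none lower, and with the mean of probe sets 5 were higher and 2 lower. Arrays did not overlap for 6 higher genes (27.4% of all genes) and for Msh6 among the lower ones (33.1%). The count of called members fell from 5 to 3 without control 1, when Msh6 and Lig1 were lost. The median of the 8 genes was 0.81 beside -0.08 over all genes, and the latter became -0.46 with median centring and 0.21 with centring on the genes tested, which made 3246 genes higher and 2151 lower in place of 2387 and 2936. In bulk samples of this kind, fewer cells of a type and less RNA per cell cannot be told apart.

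**Figure D3:**
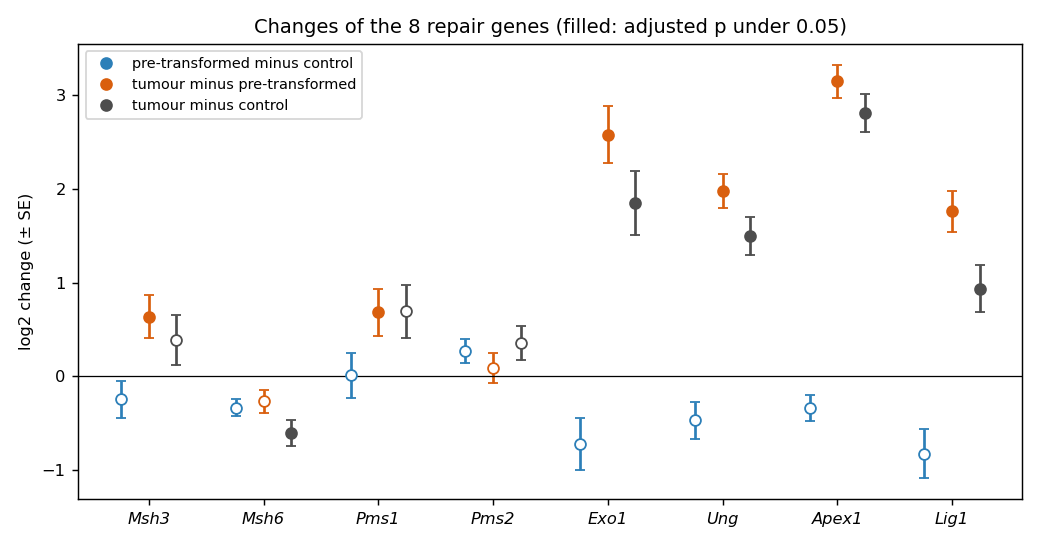
Log2 change of each repair gene (y axis, with its SE) in 3 comparisons, with filled points for an adjusted p under 0.05. In tumours Exo1, Ung, Apex1 and Lig1 lie between 0.93 and 3.15 in both comparisons, Msh6 lies below 0 in all 3 (its value of -0.27 against pre-transformed cells becomes 0.02 with centring on the genes tested), and no point of pre-transformed cells against controls is filled.

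Over every probe set, 16 of the 17 passed the filter of a signal at or above the array median on at least 2 arrays, and 11 were higher and 1 lower in tumours than in pre-transformed cells, where 25.1% and 27.9% of all probe sets were. Against controls 8 were higher and 2 lower, beside 21.2% and 22.3%. Between pre-transformed cells and controls none was called, beside 0.598% higher and 0.260% lower. Among those counted as higher in tumours, 1422261_a_at of Msh3 and 1430225_at of Exo1 were dim in all groups. Both lay under the array median on every sorted array and passed the filter only through tumour arrays. Their rise was thus partly fixed by the filter. The Msh3 probe set is counted in both tumour comparisons, that of Exo1 only against pre-transformed cells.

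Ratios within an array do not change when all its signals are multiplied by 1 factor, so each gene was also set against Msh6 on the same array. Quantile normalization is not such a scaling and can move the ratios. The reference was chosen after the values were seen, because Msh6 was the member that fell, so the ratios are given as a description with no test. Relative to Msh6, Apex1 was higher in tumours than in pre-transformed cells by 3.42 on the log2 scale, Exo1 by 2.85, Ung by 2.25, Lig1 by 2.03 and Pms1 by 0.95. The difference was 0.91 for Msh3 and 0.36 for Pms2. Exo1 was dim in pre-transformed cells, so that its ratio there is not well measured. Tumour arrays lay above all pre-transformed arrays in every ratio but that of Pms2. Before transformation the log2 ratio of Apex1 to Msh6 was -2.10 in both groups (SD 0.22 in controls and 0.17 in pre-transformed cells), that of Lig1 was -1.03 in controls (SD 0.41) and -1.53 in pre-transformed cells (SD 0.41), and that of Pms2 was -2.64 (SD 0.10) and -2.04 (SD 0.08).

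**Figure D4:**
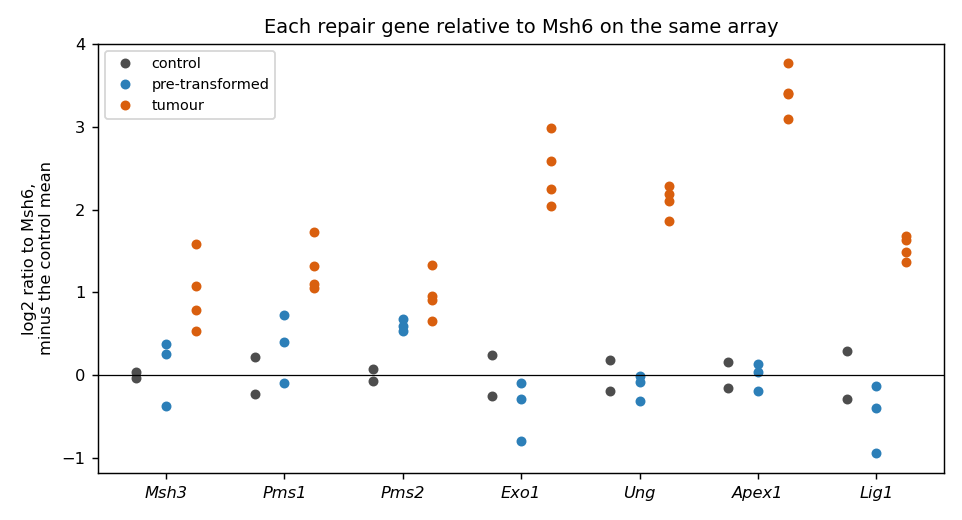
Log2 ratio of each of the other 7 repair genes to Msh6 on the same array (y axis, minus the control mean of that ratio), with 1 point per array. Tumour points lie above all pre-transformed points for every gene but Pms2, with mean differences from 0.91 for Msh3 to 3.42 for Apex1.

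The other genes of these pathways came from a list of 40, of which 36 were tested: 15 partners in mismatch repair, such as the clamp Pcna, the clamp loader Rfc, the single-strand binder Rpa and polymerase δ, and 21 genes of base excision repair. Between pre-transformed cells and controls 1 of the 36 was called, beside 1.63% of all genes. It was Rpa3, a subunit of the single-strand binder, with a log2 change of -0.65 (SE 0.12, adjusted p = 0.0419). This call was lost without either control, without pre-transformed 1 or without pre-transformed 3. In tumours against pre-transformed cells 12 of the 15 mismatch repair partners were higher and none lower. Of all genes 23.9% were higher and 31.0% lower. The median was 1.03 for the partners and -0.12 over all genes. The 12 were Pcna and subunits of Rfc, Rpa and polymerase δ, and no gene of a MutS or MutL complex was among them. Not called were Mlh3 (-0.27, adjusted p = 0.364), Pold4 (-0.31, adjusted p = 0.167) and Msh5 (adjusted p = 0.127), whose means were dim. Of the 21 base excision repair genes 11 were higher and 1 lower, with a median of 0.73. Among the 11, Nthl1 and Poll were dim in both groups. Ogg1, Mutyh, Smug1, Mpg, Apex2, Polb, Xrcc1, Lig3 and Aptx were not called. The largest rises were those of the clamp loader subunit Rfc4 (2.45, adjusted p = 8.23e-05), the flap endonuclease Fen1 (2.36, adjusted p = 8.68e-05), the polymerase ε subunit Pole (2.33, adjusted p = 1.93e-05), Rfc3 (1.94, adjusted p = 2.40e-04) and the polymerase δ subunit Pold2 (1.91, adjusted p = 2.50e-05). Neil1, a glycosylase for oxidised bases, was the only one called lower, from a mean of 431 to 109 (-1.99, SE 0.38, adjusted p = 0.00156).

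Against controls 18 of these 36 genes were higher and 2 lower in tumours, beside 20.5% and 25.2% of all genes, and the counts were 11 and 1 without control 1 and 8 and 3 with median centring of all probe sets. The nick sensor Parp1 rose by 1.66 (adjusted p = 3.27e-04), the polymerase ε subunit Pole2 by 1.52 (adjusted p = 9.42e-04), Fen1 by 1.71 (adjusted p = 0.00173) and Rfc4 by 1.68 (adjusted p = 0.00218). The repair polymerase Poll was called higher (adjusted p = 0.00552), but its means of 8.04 in controls and 27.9 in tumours were both dim. Neil1 fell by 2.08 (adjusted p = 0.00353) and the polymerase δ subunit Pold4 by 0.57 (adjusted p = 0.0422).

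**Figure D5:**
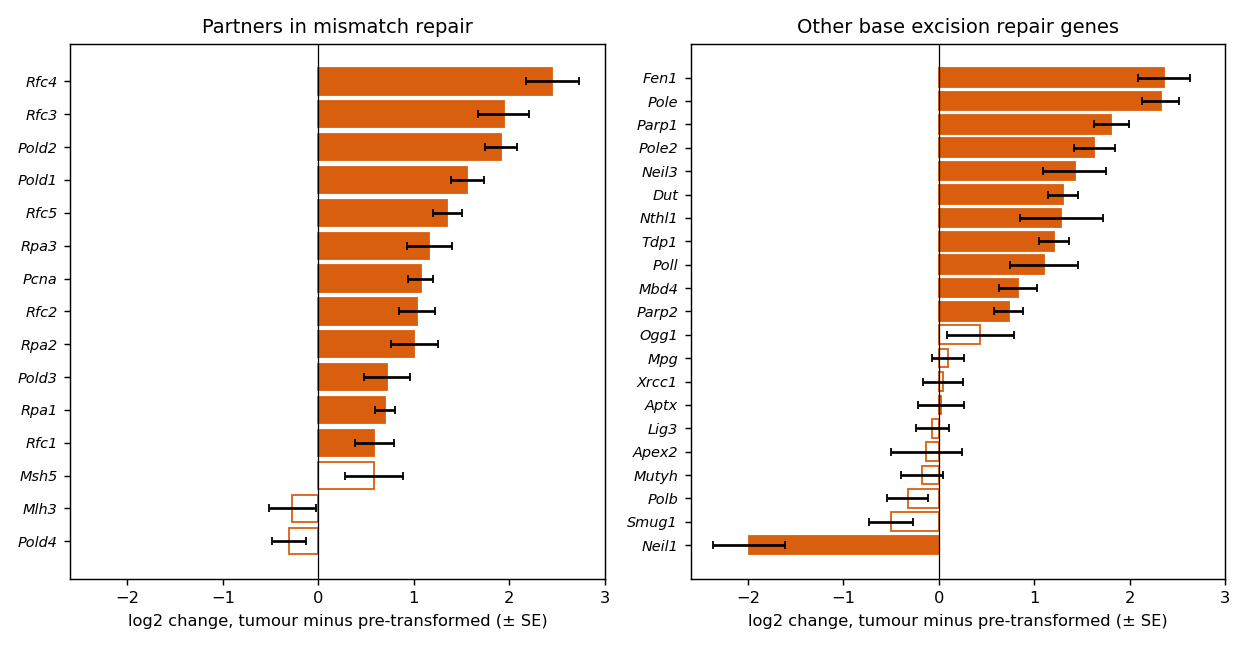
Log2 change between tumours and pre-transformed cells (x axis, with its SE) for 15 partners in mismatch repair and 21 other base excision repair genes, with filled bars for an adjusted p under 0.05. Filled bars run up to 2.45 for Rfc4 on the left and 2.36 for Fen1 on the right, and Neil1 alone is filled below 0, at -1.99.

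Proliferation genes, which are used in S phase and mitosis, moved with these genes. Of 21 tested, 20 were higher in tumours than in pre-transformed cells (23.9% of all genes), with a median log2 change of 1.70, and 18 were higher than in controls (20.5% of all genes), with a median of 1.03. Their summed signal was 16113 and 20506 in controls, 11261, 13608 and 12830 in pre-transformed cells and 39841, 40402, 30130 and 38808 in tumours. The order of the groups was that of Exo1, Ung, Apex1 and Lig1, and between pre-transformed cells and controls 2 were called lower, none higher and the median was -0.62. The part of proliferation in the repair genes' values was not tested. Nor was that of RNA quality or of other cell types tested by a fit. On tumour 2, whose myeloid markers summed to 157 and B cell markers to 246, Exo1 was at 418.1, Ung at 263.5, Apex1 at 1943.7 and Lig1 at 1078.2, which for each gene is above every sorted array. The log2 ratio of 3′ to 5′ β-actin signal was also lowest among tumours on that array, at 0.54. It was still above every sorted array (0.20 to 0.35).

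Across the 9 arrays, which fall into 3 groups and share their scaling, Exo1, Ung, Apex1 and Lig1 correlated with each other at Pearson's r of 0.893 to 0.979, and Msh6 correlated with the other 7 genes at -0.74 to -0.49. The pattern most like that of Apex1 among all genes tested was that of the translation initiation factor Eif4b (r = 0.998), followed by Pdap1 (0.998). For Ung these were the nucleotide pyrophosphatase Dctpp1 (0.997) and the ribosomal protein gene Rpl35 (0.995), for Exo1 the purine synthesis gene Pfas (0.992) and the helicase Hells (0.991), and for Lig1 the phosphatase gene Cdc25c (0.991) and the clamp-associated factor Pclaf (0.987). Pms1 was most like Fanci (0.977) and Snx21 (0.966), and Msh3 most like Rsf1 (0.956) and Plekha4 (0.946). For Msh6 they were Slc5a3 (0.958) and Crip1 (0.958), and for Pms2 Smyd1 (0.951) and Ldb3 (0.938). These values of r include the differences between the groups.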

How the data were processed

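Expression was measured on 9 arrays, 1 mouse each (2 control, 3 pre-transformed and 4 tumour samples). The deposited table holds an intensity for each probe set, made with MAS5 per the submitters' processing notes (version not given in the sources used). Its values were taken to log2, with 0 set to 0.1 and no added normalization. Probe sets at or above their array's median on at least 2 arrays were kept (26421 of 45037), and the brightest kept probe set with 1 symbol stood for a gene (11644 genes). Group means are geometric, and SDs are on the log2 scale. The number of arrays limits precision. The limma p-values set a group difference against the spread between arrays, 1 per mouse, moderated over genes.

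Moderated tests came from limma 3.58.1 (R 4.3.3), with a trend of the variance and Benjamini-Hochberg adjustment over all genes. Sorted cells were compared in a fit of those 5 arrays, and tumours in a fit of all 9. The method was tested on simulated data in which few genes changed and all groups had equal spread, unlike in the tumour comparisons. The members and lists were chosen with earlier results of these data known. Named genes were the 8 members, the up to 5 largest called rises and falls among related repair genes and the 2 genes most correlated with each member. Signal folds against a dim group set it to the 65th percentile of its arrays. Alternatives changed the filter, scaling, offset (16), floor (39.5), probe set choice, variance model, arrays in the fit, replicate block and arrays left out. Promoter words were counted in RefSeq windows on GRCm38.p6 (Python 3.11.15).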

Additional observations from a re-analysis of the deposited data

How the results depend on the processing

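Rises of Exo1, Ung and Apex1 in both tumour comparisons, and of Lig1 against pre-transformed cells, kept direction and call under every alternative run (Ung had no value without suffixed probe sets). Directions that turned were small or rested on probe set choice. With median centring of all probe sets, Pms2 changed by -0.17 against pre-transformed cells and -0.034 against controls, Msh3 by -0.00058 against controls and Pms1 by -0.12 before transformation. With the mean of probe sets Pms2 changed by -0.90 and -0.56 (adjusted p = 0.00216 and 0.0451), and by -0.63 relative to Msh6. With centring on the genes tested, chosen after seeing the data like the settings for ratios to Msh6, Msh6 changed by 0.021 against pre-transformed cells and Pms1 by -0.00020 before transformation. Pms1 before transformation also turned with quantile scaling (-0.059) and with arrays left out (-0.22 to 0.24).

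The count of genes called before transformation (190) was 74 without a filter, 14 with a common floor, 1 without a trend, 6 with all arrays in the fit, 431 with array weights and 18 to 291 with an array left out. The count of related repair genes there (1) was 0 without a filter, with a common floor, with every probe set, without a trend and with all arrays in the fit, 2 with a stricter filter and with robust variance, 3 with array weights and 0 to 3 with an array left out. With every probe set, calls in tumours were 12 and 10 for members, 11612 and 9537 in all and 42 and 32 for related repair, against pre-transformed cells and controls. Related repair against controls gave 11 calls with median centring. With an array left out, counts against controls were 3 to 6 for members, 2589 to 5703 for all genes and 12 to 21 for related repair. A lone control left by this is assumed to vary like the other groups. The cause of these shifts was not tested.

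Replicate numbers name different mice, and deviations of same-numbered arrays correlated at -0.024 to 0.085, so that the numbers do not pair arrays. With the replicate block, 1 member was called before transformation (Lig1, -0.88, adjusted p = 0.0385), related repair genes gave 2 calls there, Pms1 changed by -0.022 there, and the tumour calls of Msh3 (adjusted p = 0.105) and Pms1 (0.129) were lost.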

Other observations

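Several repair genes start close to a neighbour on the opposite strand, and the arrays read those neighbours too. These genes were singled out after their values were seen. The start of Apex1 lies 56 bases from that of Osgep, a gene of transfer RNA modification, whose signal was 203.8 in controls, 188 in pre-transformed cells and 449 in tumours, a log2 change of 1.26 from pre-transformed cells to tumours (SE 0.22, limma adjusted p = 8.76e-04), beside 3.15 for Apex1. Pms2 starts 162 bases from Aimp2, a scaffold of transfer RNA synthetases, and Aimp2 rose by 1.99 (SE 0.19, adjusted p = 3.17e-05) while Pms2 changed by 0.09. Pms1 starts 67 bases from Ormdl1, which changed by -0.02 (adjusted p = 0.95) while Pms1 changed by 0.68. Lig1 has starts 105 and 544 bases from that of Zswim9, whose signal was dim in all 3 groups (15.3, 13.3 and 14.2). Differences between the genes of a pair were not tested.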
